A study of Mus musculus with 4 samples.

Results

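The retina depends on blood vessels that grow over its surface after birth and then sprout into its inner layers, and 10 genes of that process are described here in retinas with and without the transcription factor gene Fezf2. They are the endothelial genes Pecam1, Cdh5, Tek and Cldn5, the VEGF gene Vegfa with its receptor genes Kdr and Flt1, and the norrin gene Ndp with the genes of its receptor complex, Fzd4 and Tspan12. The members were taken by gene symbol from a list made with earlier results of these data known. All 10 were found among the 22558 symbols of the deposited tables, each at a single locus. Whole retinas were sequenced from Fezf2 knockout (KO) mice at postnatal day 14 (P14), control littermates at P14, KO mice at postnatal day 7 (P7) and control littermates at P7. Each of these 4 groups is 1 library. Per the labels the controls are wild type, both genotypes are on the strain written there as C57/BL/6J, and all mice had normal feed in an SPF colony. The labels do not state how the Fezf2 allele was made, how many retinas went into a library, or the sex of the mice. Fezf2 itself was at 0.126 FPKM in KO P14 and 4.02 FPKM in control P14, and at 0.592 FPKM in KO P7 and 8.32 FPKM in control P7, so its level was lower in the library labelled KO at each age.

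In the mouse retina a superficial vascular plexus spreads from the optic nerve during the days after birth, and the deeper plexuses form later, around the ages sampled here. VEGF, released by astrocytes, Müller glia and neurons, guides this growth through receptors on endothelial cells. Norrin, secreted mainly by Müller glia, binds Fzd4 on endothelial cells together with the coreceptor Lrp5 and the tetraspanin Tspan12, activates beta-catenin signalling, and is required for the deep plexuses and for the blood-retina barrier. Mutations of these genes cause Norrie disease and familial exudative vitreoretinopathy in humans.

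Levels are given in FPKM, fragment counts scaled by transcript length and sequencing depth, so they can be set side by side between genes. The deposited tables give each FPKM a confidence interval, called its bounds here. The level lay above its own upper bound at 1809 to 2243 of 23021 loci per library, such as Kdr in control P7 and Vtn in KO P14. Log2 differences, ratios and fits use the levels, also where these lie outside the interval. A difference is called beyond counting error below where the bounds of the libraries compared do not overlap. Variation from mouse to mouse or from dissection to dissection is outside these bounds, and with 1 library per group there is no test between the genotypes at one age. If the bounds span 2 standard deviations on each side, the members rest on 96 to 5196 fragments per library, and the libraries hold about 12400000 such fragments in KO P14, 9280000 in control P14, 11600000 in KO P7 and 11900000 in control P7. Differences are of log2(FPKM + 1), a scale on which changes of weakly expressed genes look smaller than they are. All 10 listed retinal genes averaged 1 FPKM or more at each age. In KO 6 were higher and 1 lower beyond counting error at P14, and 1 higher and 3 lower at P7. Of all genes tested, 7.45% were higher and 8.25% lower at P14, and 7.34% higher and 6.1% lower at P7. The libraries also differed in genes known from blood and neighbouring tissue. Carried-over tissue and expression within the retina cannot be told apart in these sums. The 8 listed erythroid genes summed to 397 FPKM in KO P14, against 1223 FPKM in control P14, and to 387 FPKM in KO P7, against 334 FPKM in control P7. The 9 genes of lens, vitreous and ciliary matrix summed to 8.69 FPKM in KO P14, against 69.9 FPKM in control P14, and to 39.9 FPKM in KO P7, against 15.5 FPKM in control P7.

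Vegfa, Kdr and Cldn5 had the 3 highest levels in every library. At P14 Vegfa led the 10 genes, at 31.7 FPKM in KO and 29.8 FPKM in control, while at P7 Kdr led them at 62.5 FPKM in KO and 63.8 FPKM in control, and Cldn5 ranked next in all 4 libraries. Tek was the lowest in every library, at 1.88, 1.97, 1.36 and 1.34 FPKM in KO P14, control P14, KO P7 and control P7. Between these ends many neighbours in the order of levels could not be separated by their bounds. Ndp, Tspan12 and Flt1 lay next to each other with overlapping bounds at P14, and in control P7 the run Pecam1, Tspan12, Cdh5, Ndp and Flt1 had bounds that overlapped from each gene to the next. The bounds of Cldn5 and Kdr overlapped in control P14 and were apart in KO P14.

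**Figure D1:**
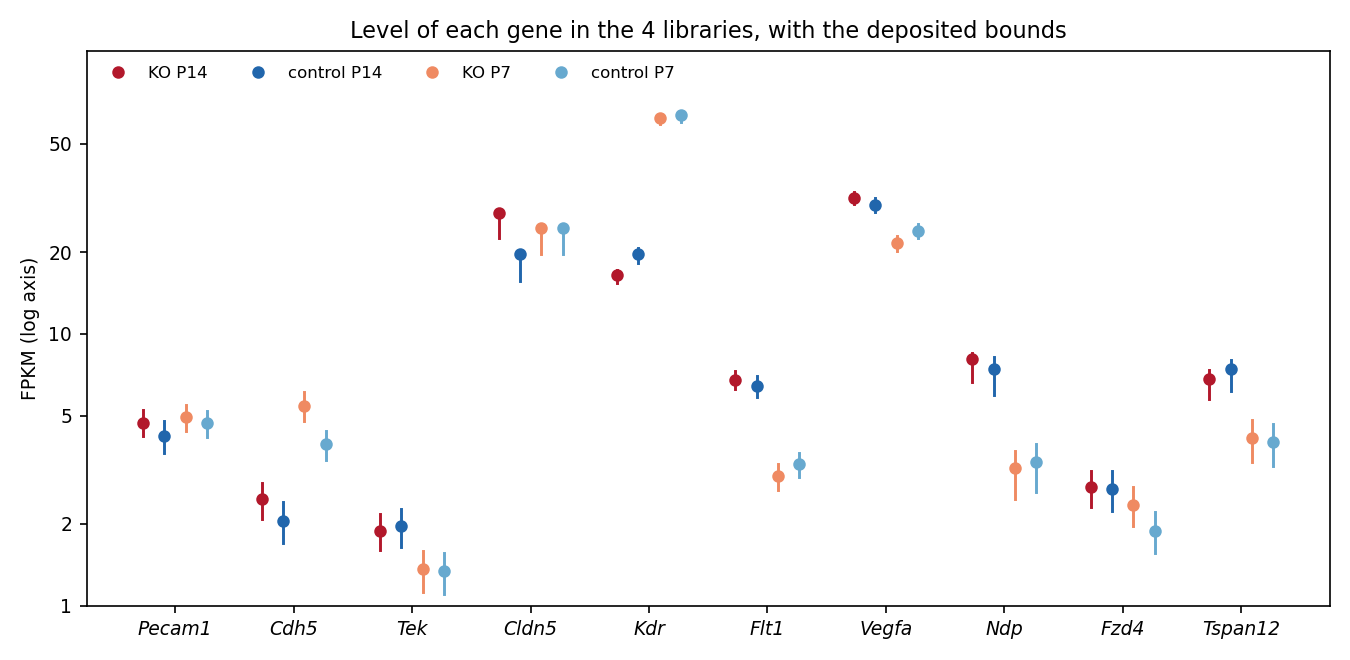
FPKM (log axis) of the 10 genes in the KO P14, control P14, KO P7 and control P7 libraries; points are the deposited levels and vertical lines the deposited bounds. Kdr stands near 60 FPKM in both P7 libraries and under 20 FPKM in both P14 libraries, whereas Flt1, Vegfa, Ndp and Tspan12 lie higher at P14 in both genotypes.

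Kdr encodes the main signalling receptor of VEGF on endothelial cells, and in the mouse it is also known from retinal progenitors and neurons. The gene lies on chromosome 5, bases 76329299 to 76374453 of mm9. Its level was 16.5 FPKM in KO P14 and 19.7 FPKM in control P14 (bounds 15.4 to 17.1 and 18.3 to 20.6), against 62.5 FPKM in KO P7 and 63.8 FPKM in control P7 (bounds 59.0 to 62.5 and 60.3 to 63.8). Both P14 libraries were thus far below both P7 libraries, and at P14 the KO library was below the control by more than counting error. The log2 difference between KO and control was -0.24 at P14 and -0.03 at P7. Fitted with limma to all 4 libraries at once, as the sum of an age and a genotype effect, the data gave an age term of -1.75 ± 0.08 (SE) for Kdr, with an adjusted p of 6.53e-09 after Benjamini-Hochberg adjustment over 12934 genes. Its genotype term was -0.13 ± 0.08 (adjusted p 0.683). With 1 library per group, the SE and p of this fit do not measure the spread between mice or dissections within a group. This holds for every fitted term below.

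Flt1 encodes the other VEGF receptor of endothelial cells, which binds VEGF tightly, signals weakly and also exists in a soluble form that traps the ligand. It lies on chromosome 5 as well, bases 148373772 to 148537564 of mm9. It moved the opposite way to Kdr with age. Flt1 was at 6.79 FPKM in KO P14 and 6.43 FPKM in control P14, against 2.99 FPKM in KO P7 and 3.31 FPKM in control P7, so that the ages were apart and the genotypes were not. The age term was 0.88 ± 0.11 (SE; adjusted p 1.77e-05) and the genotype term -0.02 ± 0.11 (adjusted p 0.98). The ratio of Kdr to Flt1 in FPKM was 2.43 in KO P14 and 3.06 in control P14, against 20.9 in KO P7 and 19.3 in control P7.

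The promoters of both receptor genes are shown because these genes changed in opposite directions with age. The sequences run 5′ to 3′ from 250 bases before to 50 bases after the annotated start (RefSeq, build GRCm38.p6, minus strand for both, at chr5:75978406-75978705 for Kdr and chr5:147725962-147726261 for Flt1). This is a later build than the mm9 of the expression files, so the coordinates of the builds are not to be compared. Capitals mark, on either strand, the ETS core GGAAG, the TATA box TATAAA, the GC box GGGCGG and the cAMP response element TGACGTCA, whose matches in these promoters share no base with each other.
Kdr: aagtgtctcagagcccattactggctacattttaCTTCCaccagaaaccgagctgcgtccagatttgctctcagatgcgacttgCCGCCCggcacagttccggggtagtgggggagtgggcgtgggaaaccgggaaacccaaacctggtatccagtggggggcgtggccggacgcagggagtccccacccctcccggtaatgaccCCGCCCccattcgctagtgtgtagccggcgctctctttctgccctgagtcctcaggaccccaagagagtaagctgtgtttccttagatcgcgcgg
Flt1: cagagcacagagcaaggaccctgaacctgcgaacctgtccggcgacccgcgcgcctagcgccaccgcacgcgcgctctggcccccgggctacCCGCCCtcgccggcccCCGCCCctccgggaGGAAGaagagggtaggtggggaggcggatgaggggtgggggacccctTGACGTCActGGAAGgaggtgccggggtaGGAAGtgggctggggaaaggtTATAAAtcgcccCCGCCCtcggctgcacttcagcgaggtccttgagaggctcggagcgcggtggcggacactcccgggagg
The Kdr window holds 1 ETS core and 2 GC boxes and no TATAAA, whereas the Flt1 window holds 3 ETS cores, 3 GC boxes, a TATAAA that begins at position -31 from the start and a TGACGTCA at -81. Among all 32851 RefSeq promoters of this length, 71.4% hold the ETS core, 35.7% the GC box, 13.6% TATAAA and 1.79% TGACGTCA. These matches describe the letters and are not binding sites.

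Vegfa, the ligand of both receptors, lies on chromosome 17, bases 46153943 to 46169326 of mm9. Its level was 31.7 FPKM in KO P14 and 29.8 FPKM in control P14 (bounds 30.2 to 33.3 and 28.2 to 31.6), against 21.5 FPKM in KO P7 and 23.9 FPKM in control P7 (bounds 20.2 to 22.9 and 22.5 to 25.3). The P14 libraries were higher in both genotypes and the genotypes overlapped at both ages. The age term was 0.42 ± 0.09 (SE; adjusted p 0.000971) and the genotype term -0.03 ± 0.09 (adjusted p 0.972). With Kdr low and Vegfa high at P14, the ratio of Vegfa to Kdr in FPKM was 1.92 in KO P14 and 1.52 in control P14, against 0.345 in KO P7 and 0.374 in control P7.

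Ndp encodes norrin, the secreted cystine-knot ligand of Fzd4, and lies on chromosome X, bases 16462648 to 16488890 of mm9. It was at 8.11 FPKM in KO P14 and 7.42 FPKM in control P14 (bounds 6.64 to 8.53 and 5.95 to 8.23), against 3.2 FPKM in KO P7 and 3.38 FPKM in control P7 (bounds 2.47 to 3.70 and 2.61 to 3.95). Both P14 libraries were above both P7 libraries, and the genotypes overlapped at both ages. The age term, 1.03 ± 0.11 (SE; adjusted p 4.18e-06), was the highest among the 10 genes, and the genotype term was 0.03 ± 0.11 (adjusted p 0.976). Because Ndp is X-linked, the sex-linked genes were read as well. The Y-linked genes Ddx3y, Eif2s3y, Kdm5d and Uty stood at 0.36 FPKM or less in every library, and Xist at 15.6 FPKM in KO P14, 24.9 FPKM in control P14, 15.6 FPKM in KO P7 and 27.6 FPKM in control P7. Xist was called lower in KO by limma's genotype term (-0.71 ± 0.09 SE, adjusted p 0.0036), and the part of sex in the values of Ndp was not tested.

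Tspan12, the tetraspanin that enhances norrin signalling through Fzd4, rose with Ndp. The gene lies on chromosome 6, bases 21721395 to 21802515 of mm9. Its level was 6.83 FPKM in KO P14 and 7.41 FPKM in control P14, against 4.13 FPKM in KO P7 and 3.99 FPKM in control P7. The ages were apart and the genotypes overlapped, with an age term of 0.68 ± 0.11 (SE; adjusted p 0.000113) and a genotype term of -0.03 ± 0.11 (adjusted p 0.973). Fzd4, the receptor, differed less. It lies on chromosome 7, bases 96552876 to 96558620 of mm9, and was at 2.72 FPKM in KO P14 and 2.69 FPKM in control P14, against 2.35 FPKM in KO P7 and 1.89 FPKM in control P7. Its bounds were apart between the ages in control (2.24 to 3.14 at P14 and 1.56 to 2.22 at P7) and overlapped in KO (2.30 to 3.14 and 1.96 to 2.72). The age term of 0.25 ± 0.12 (SE) missed the threshold at an adjusted p of 0.0662, and the genotype term was 0.11 ± 0.12 (adjusted p 0.838). The ratio of Ndp to Fzd4 in FPKM was 2.98 in KO P14 and 2.76 in control P14, against 1.36 in KO P7 and 1.79 in control P7.

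The promoters of Ndp and Tspan12 are shown because both genes rose with age in both genotypes. They come from the same table and build, with the same capitals, at chrX:16911725-16912024 for Ndp and chr6:21852484-21852783 for Tspan12, each on the minus strand.
Ndp: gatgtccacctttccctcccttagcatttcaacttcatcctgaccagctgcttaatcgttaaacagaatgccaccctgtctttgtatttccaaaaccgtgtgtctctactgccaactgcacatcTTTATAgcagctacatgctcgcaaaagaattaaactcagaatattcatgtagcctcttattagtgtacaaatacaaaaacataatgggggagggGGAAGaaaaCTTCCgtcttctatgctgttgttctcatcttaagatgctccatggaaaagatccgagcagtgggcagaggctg
Tspan12: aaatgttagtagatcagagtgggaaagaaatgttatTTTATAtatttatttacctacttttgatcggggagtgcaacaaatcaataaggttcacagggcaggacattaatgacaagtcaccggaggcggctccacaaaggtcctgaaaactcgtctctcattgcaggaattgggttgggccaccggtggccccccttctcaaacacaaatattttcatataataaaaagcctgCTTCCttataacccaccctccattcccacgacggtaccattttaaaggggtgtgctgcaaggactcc
Both windows are poorer in G and C, 43.0% for Ndp and 44.0% for Tspan12, than those of Flt1 (70.7%) and Kdr (60.7%), where the median of all promoters in the table is 52.7%. Ndp holds 2 ETS cores and Tspan12 holds 1, each holds 1 TATAAA on the opposite strand, far from the start, and neither holds GGGCGG or TGACGTCA. The hypoxia response element core ACGTG and the OTX and CRX motif TAATCC, on either strand, were found in none of these 4 windows, and they occur in 19.6% and 7.06% of all promoters. The table had a promoter for 8 of the 10 genes. Outside the windows shown, ACGTG was found in a Vegfa promoter, beginning at -211, and not in the other promoter listed for Vegfa.

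Pecam1, an adhesion receptor of endothelial junctions, was the steadiest of the endothelial genes. It lies on chromosome 11, bases 106515532 to 106576595 of mm9, and was at 4.72 FPKM in KO P14 and 4.22 FPKM in control P14, against 4.94 FPKM in KO P7 and 4.69 FPKM in control P7. The bounds of all 4 libraries overlapped, and neither its age term of -0.09 ± 0.11 (SE; adjusted p 0.469) nor its genotype term of 0.10 ± 0.11 (adjusted p 0.854) passed the threshold. In whole-retina RNA, fewer endothelial cells and less RNA per cell cannot be told apart.

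Cdh5 encodes VE-cadherin, the cadherin that holds endothelial cells together, and lies on chromosome 8, bases 106625525 to 106668402 of mm9. Its level was 2.46 FPKM in KO P14 and 2.06 FPKM in control P14 (bounds 2.09 to 2.83 and 1.70 to 2.41), against 5.44 FPKM in KO P7 and 3.94 FPKM in control P7 (bounds 4.78 to 6.09 and 3.43 to 4.39). Both P14 libraries were below both P7 libraries, and the KO library was above the control beyond counting error at P7. The fragments implied by the bounds at P7 were nearly equal, 275 in KO and 268 in control. The log2 difference between KO and control was 0.18 at P14 and 0.38 at P7. Cdh5 fell with age, with a term of -0.79 ± 0.11 (SE; adjusted p 5.16e-05), and its genotype term of 0.28 ± 0.11 had an unadjusted p of 0.0292 and an adjusted p of 0.487.

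Cldn5, the claudin that seals endothelial tight junctions and with them the blood-retina barrier, lies on chromosome 16, bases 18776940 to 18778355 of mm9. It was at 27.9 FPKM in KO P14 and 19.7 FPKM in control P14, against 24.4 FPKM in KO P7 and 24.5 FPKM in control P7. The bounds of KO P14, 22.6 to 27.7, lay above those of control P14, 15.6 to 19.8, while those at P7 overlapped (19.7 to 24.2 and 19.7 to 24.0). The deposited level of this short gene was above its own upper bound in 3 of the libraries, and the log2 differences, fitted terms and ratio that follow use those levels. The log2 difference between KO and control was 0.48 at P14 and -0.0020 at P7. The genotype term, 0.24 ± 0.11 (SE), had an unadjusted p of 0.0487 and an adjusted p of 0.543, and the age term was -0.06 ± 0.11 (adjusted p 0.644). The ratio of Cldn5 to Pecam1 in FPKM was 5.91 in KO P14 and 4.67 in control P14, against 4.94 in KO P7 and 5.22 in control P7.

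Tek encodes Tie2, the receptor for angiopoietins on endothelial cells, and lies on chromosome 4, bases 94405991 to 94541630 of mm9. It was at 1.88 FPKM in KO P14 and 1.97 FPKM in control P14 (bounds 1.604 to 2.17 and 1.64 to 2.28), against 1.36 FPKM in KO P7 and 1.34 FPKM in control P7 (bounds 1.12 to 1.595 and 1.11 to 1.56). The ages were apart by a small margin in each genotype and the genotypes overlapped at both ages. Tek rose with age by 0.32 ± 0.11 (SE; adjusted p 0.0244), a call that was lost on a TPM scale (0.33, adjusted p 0.0654), and its genotype term was -0.01 ± 0.11 (adjusted p 0.99).

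Over the 10 genes, few differences between the genotypes exceeded counting error. At P14 Cldn5 was higher and Kdr lower in the KO library by this rule, 1 gene of 10 in each direction, where 7.45% of 12813 genes tested were higher and 8.25% lower. At P7 Cdh5 was higher, 1 gene of 10, and 0 were lower, where 7.34% of 12669 genes were higher and 6.1% lower. These shares lie near those of all genes, so the counts give no result about the 10 genes as a set. None of the 3 genes was past the rule at both ages. The implied fragments of Cldn5 were 387 in KO P14 and 290 in control P14, and those of Kdr 1384 and 1088. Those of Cdh5 were 275 in KO P7 and 268 in control P7. Set against the implied fragments of each library, these numbers were closer between the genotypes than the levels. The reason was not tested. A difference of 1.5-fold was reached by 0 of the 10 at either age, against 0.453% of all genes higher and 1.02% lower at P14, and 0.379% higher and 0.624% lower at P7. The median log2 difference of the 10 was 0.08 at P14 and 0.0065 at P7, beside 0.0032 and 0.0074 for all genes tested. The genotype term of limma called 0 of the 10 at an adjusted p below 0.05, 2 at an unadjusted p below 0.05 (Cdh5 and Cldn5). It called 0% of 12934 genes higher and 0.24% lower, and 9.14% were at an unadjusted p below 0.05.

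**Figure D2:**
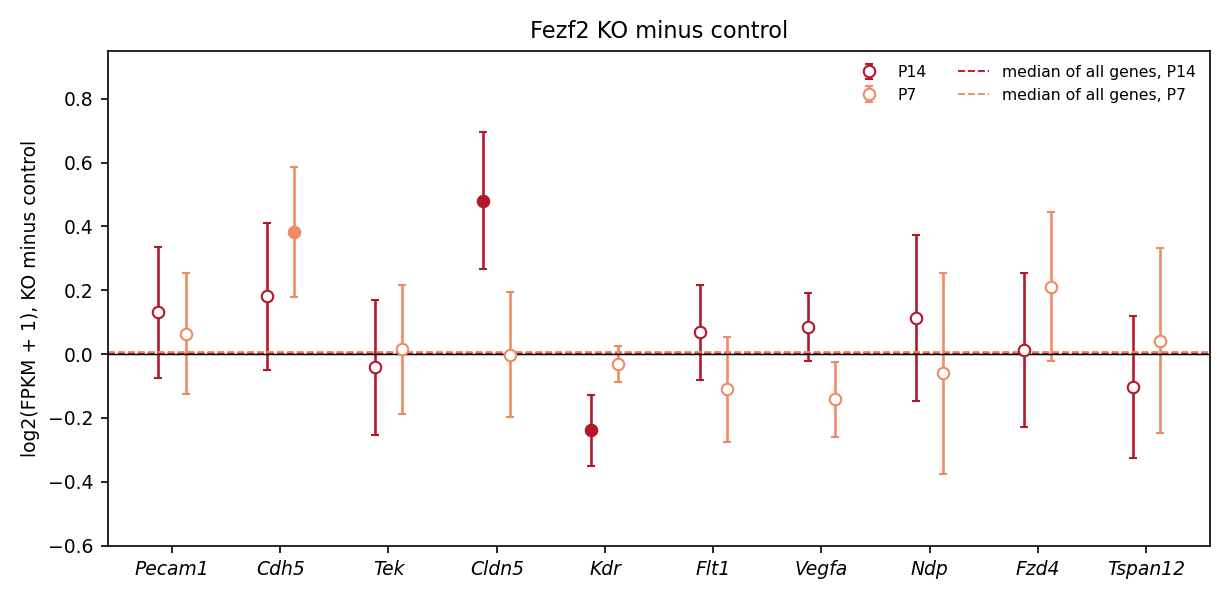
Difference of log2(FPKM + 1), KO minus control, for the 10 genes at P14 and P7; whiskers combine the half-widths of the deposited bounds, filled points have bounds that do not overlap, and dashed lines are the medians of all genes tested. Filled points are Cldn5 (0.48) and Kdr (-0.24) at P14 and Cdh5 (0.38) at P7.

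These P14 differences stood beside wider ones in genes of other tissues in the same libraries. Of 6 measured erythroid genes 0 were higher and 5 lower beyond counting error in KO P14 (median log2 difference -1.45), with the alpha-globin genes uncertain because of their copies. Of 11 measured pigment epithelium genes 0 were higher and 7 lower (median -0.33), with summed levels of 171 FPKM in KO P14, against 229 FPKM in control P14, and 137 FPKM in KO P7, against 120 FPKM in control P7. All 6 measured genes of lens, vitreous and ciliary matrix were lower in KO P14 (median -2.01) and 5 of 7 were higher in KO P7 (median 0.73), with Cryba1 at 0 FPKM in KO P14. At P7, 1 of 6 erythroid and 3 of 10 pigment epithelium genes were higher and 0 of either lower. That erythroid gene was the alpha-globin gene Hba-a2, at 22.8 FPKM in KO P7 and 0.02 FPKM in control P7. It is uncertain because of its copies, and the other measured erythroid genes overlapped at P7. Among all genes tested 7.45% were higher and 8.25% lower at P14, and 7.34% higher and 6.1% lower at P7. The part of blood and neighbouring tissue in the values of Cldn5, Kdr and Cdh5 was not tested.

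The age difference had the same sign in both genotypes for every one of the 10 genes but Cldn5. In KO the P14 library was higher beyond counting error for 5 genes of 10 (Flt1, Tek, Vegfa, Ndp and Tspan12) and lower for 2 (Cdh5 and Kdr), where 29.0% of 13048 genes tested were higher and 39.4% lower. In control it was higher for 6 genes (the same 5 and Fzd4) and lower for the same 2, where 27.6% of 13117 genes were higher and 37.7% lower. At 1.5-fold, Flt1, Ndp and Tspan12 were higher and Cdh5 and Kdr lower in each genotype. All genes tested past 1.5-fold made up 17.5% higher and 21.6% lower in KO and 16.4% higher and 20.8% lower in control. The age term of limma called 5 of the 10 higher and 2 lower, against 30.7% and 40.6% of 12934 genes, so the 10 genes were called about as often as genes in general. The median log2 difference of the 10 was 0.24 in KO and 0.33 in control, beside -0.09 and -0.08 for all genes tested. Cldn5 differed by 0.18 in KO and -0.30 in control, and its bounds overlapped in both. Whether any gene's age difference depended on genotype could not be tested with 1 library per group.

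**Figure D3:**
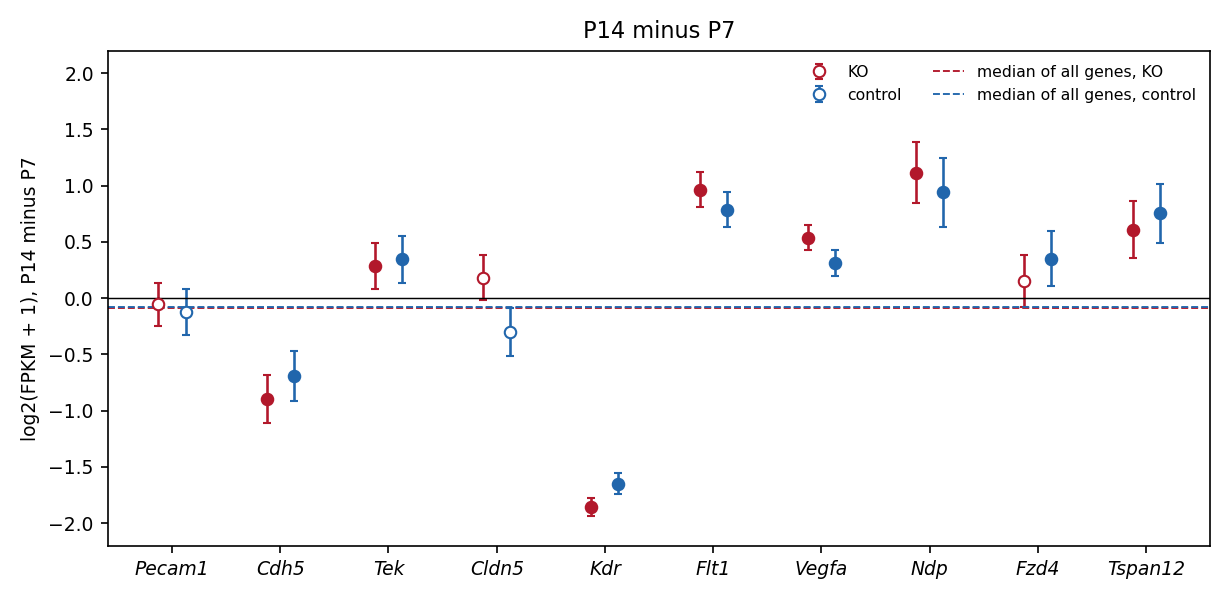
Difference of log2(FPKM + 1), P14 minus P7, for the 10 genes in KO and control; whiskers combine the half-widths of the deposited bounds, filled points have bounds that do not overlap, and dashed lines are the medians of all genes tested. Kdr (-1.86 in KO and -1.65 in control) and Cdh5 lie below zero, and Ndp (1.12 and 0.94), Flt1, Tspan12, Vegfa and Tek above it.

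Other endothelial genes changed with age in both directions. Of 25 fitted genes of this list the age term called 8 higher and 6 lower (median -0.11), where 30.7% of all genes were called higher and 40.6% lower. Genes known from the blood-tissue barrier went both ways. Slco1a4, an organic anion transporter of brain endothelium, was at 5.04 FPKM in KO P14 and 6.20 FPKM in control P14, against 0.498 FPKM in KO P7 and 0.619 FPKM in control P7. The efflux pump gene Abcb1a was at 1.54 and 2.06 FPKM at P14 in KO and control, against 0.683 and 0.674 FPKM at P7, and the junction gene Esam at 10.2 and 12.4 FPKM, against 5.42 and 4.99 FPKM. Ly6c1, a surface antigen of capillary endothelium, was at 19.3 FPKM in KO P14 and 19.8 FPKM in control P14, against 1.12 FPKM in KO P7 and 0.992 FPKM in control P7. Mfsd2a, a lipid transporter gene of barrier endothelium, was called lower, at 2.80 FPKM in KO P14 and 2.05 FPKM in control P14, against 3.07 FPKM in KO P7 and 3.81 FPKM in control P7 (age term -0.38, adjusted p 0.0265). Plvap, known from leaky endothelium, was called higher, at 3.09 and 2.85 FPKM at P14 in KO and control, against 1.74 and 1.81 FPKM at P7 (0.52, adjusted p 0.00137). By the bounds, Mfsd2a was lower with age in control (-0.66) and overlapped in KO (-0.10). Plvap was higher in KO (0.58) and overlapped in control (0.45). Mfsd2a and Plvap were named after their values were seen. Between the genotypes, 2 of 25 measured genes were higher in KO beyond counting error at P14 and 0 lower (median 0.09, and -0.25 with a floor of 5 FPKM), Vwf (1.37 against 0.98 FPKM, log2 difference 0.26) and Ptprb (2.40 against 2.01 FPKM, 0.18). At P7 it was 0 of 23 in either direction at 1 FPKM or more on average (median -0.02). Over all genes tested, 7.45% were higher and 8.25% lower at P14, and 7.34% higher and 6.1% lower at P7.

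Of the genes of the VEGF, angiopoietin and apelin axis, the age term called 2 of 11 fitted genes higher and 7 lower (median -0.51), where 30.7% of all genes were called higher and 40.6% lower. The median difference of the list in KO, -0.68 at P14 against P7, was 0.06 when genes under 1 FPKM were kept, and that in control, -0.65, was -0.13 with a floor of 5 FPKM. Aplnr, the apelin receptor, was at 0.834 FPKM in KO P14 and 0.792 FPKM in control P14, against 5.52 FPKM in KO P7 and 5.70 FPKM in control P7. Angpt2, the angiopoietin of remodelling vessels, was at 2.28 and 1.82 FPKM at P14 in KO and control, against 11.7 and 7.99 FPKM at P7. Dll4, the Notch ligand of endothelial tip cells, was at 0.803 and 0.614 FPKM, against 2.56 and 2.12 FPKM. Nrp2, a coreceptor for VEGF family ligands, was at 2.67 and 2.88 FPKM, against 7.93 and 7.14 FPKM. For each of these 4 genes both P14 libraries were below both P7 libraries. Between the genotypes, 3 of 8 measured genes were higher in KO P14 beyond counting error and 0 lower: Apln, the apelin gene (2.55 against 1.56 FPKM, log2 difference 0.47), Pdgfb, the pericyte-recruiting ligand (2.35 against 1.48 FPKM, 0.44), and Vegfb (45.7 against 39.1 FPKM, 0.22). At P7 Angpt2 was higher in KO (0.50) and Nrp1, another coreceptor, was lower (4.87 against 5.94 FPKM, -0.24), 1 of 10 in each direction. The shares of all genes tested were 7.45% higher and 8.25% lower at P14, and 7.34% higher and 6.1% lower at P7. Limma's genotype term called 0 of the 11 fitted genes of the list.

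The norrin and Wnt list holds coreceptors, ligands, secreted modulators and intracellular genes of the pathway. The age term called 2 of its 19 fitted genes higher and 13 lower (median -0.70), where 30.7% of all genes were called higher and 40.6% lower. Lrp5, the coreceptor of norrin, was at 3.04 FPKM in KO P14 and 2.54 FPKM in control P14, against 5.25 FPKM in KO P7 and 5.20 FPKM in control P7, so it moved opposite to Ndp and Tspan12. Apc and Axin1, of the complex that degrades beta-catenin, and Dvl3, which relays the frizzled signal, were lower too. Apc was at 21.2 and 19.9 FPKM at P14 in KO and control, against 46.6 and 47.6 FPKM at P7, Axin1 at 9.39 and 7.94 FPKM, against 18.6 and 16.5 FPKM, and Dvl3 at 16.3 and 14.3 FPKM, against 29.6 and 30.9 FPKM. These genes are expressed throughout the retina and not in vessels alone. Between the genotypes, Nkd1, an inhibitor that Wnt signalling itself induces, was higher in KO beyond counting error at both ages, at 7.60 against 6.25 FPKM at P14 (log2 difference 0.25) and 10.99 against 8.76 FPKM at P7 (0.30), but its genotype term missed the threshold (0.27 ± 0.10 SE, adjusted p 0.452). Axin2 (0.17 at P14 and 0.03 at P7) and Apcdd1 (0.01 and 0.11), which Wnt signalling also induces, had overlapping bounds between the genotypes at both ages. In KO P14 Dkk3 (-0.14) and Gsk3b (-0.14) were lower, making 1 higher and 2 lower of 18 measured. In KO P7, 4 of 19 were higher, Gsk3b (0.10) and Dkk3 (0.09) among them, and 1 lower, Dvl1 at 11.5 against 15.5 FPKM (-0.40). For all genes tested the shares were 7.45% higher and 8.25% lower at P14, and 7.34% higher and 6.1% lower at P7.

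Pericyte and smooth muscle genes went both ways with age. Of 10 fitted genes 4 were called higher and 5 lower (median -0.05), where 30.7% of all genes were called higher and 40.6% lower. Vtn, which encodes vitronectin, was at 375 FPKM in KO P14 and 369 FPKM in control P14, against 22.0 FPKM in KO P7 and 19.9 FPKM in control P7. It is also known from photoreceptors, so at this level it cannot stand for pericytes. Pdgfrb, the receptor that defines pericytes, was at 3.29 and 3.11 FPKM at P14 in KO and control, against 4.05 and 4.61 FPKM at P7, and Notch3 at 0.754 and 0.694 FPKM, against 1.95 and 1.57 FPKM. Ndufa4l2, a mitochondrial protein gene of pericytes that is also induced by low oxygen, was at 9.76 FPKM in KO P14 and 4.62 FPKM in control P14 (log2 difference 0.94), against 24.7 FPKM in KO P7 and 29.5 FPKM in control P7 (-0.25). It was the only 1 of 9 measured genes of this list apart between the genotypes at P14, and 0 of 10 were at P7. Of all genes tested, 15.7% were apart at P14 and 13.4% at P7.

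Genes of the hypoxia response, which drives Vegfa, gave no common direction between the genotypes. In KO P14, 5 of 16 measured genes were higher and 4 lower beyond counting error (median 0.01). Among the higher were Adm, which encodes the vasodilator peptide adrenomedullin, at 1.64 against 0.481 FPKM (log2 difference 0.84), and Ddit4, an inhibitor of mTOR signalling, at 88.2 against 64.0 FPKM (0.46). Among the lower were the kinase gene Pdk1 at 10.6 against 13.1 FPKM (-0.28) and the mitophagy gene Bnip3 at 99.2 against 115 FPKM (-0.21). At P7, 2 of 15 were higher, Ndrg1 (0.09) and Ldha (0.07), and 0 lower. Among all genes tested 7.45% were higher and 8.25% lower at P14, and 7.34% higher and 6.1% lower at P7. With age 9 of 16 fitted genes were called higher and 4 lower (median 0.23), where 30.7% of all genes were called higher and 40.6% lower. The glycolytic gene Pgk1 was at 518 FPKM in KO P14 and 540 FPKM in control P14, against 214 FPKM in KO P7 and 208 FPKM in control P7. P4ha1, a collagen hydroxylase gene, was at 13.3 and 14.3 FPKM at P14 in KO and control, against 4.56 and 5.17 FPKM at P7, while Ndrg1 was lower, at 112 and 100.1 FPKM, against 502 and 472 FPKM.

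Retinal astrocytes form the template on which the superficial vessels spread. Pdgfra, the receptor gene that marks them, was at 2.42 FPKM in KO P14 and 2.71 FPKM in control P14, against 9.93 FPKM in KO P7 and 9.53 FPKM in control P7. Most others of the list are shared with Müller glia. With age 5 of 6 fitted genes were called higher and 1 lower (median 1.10), where 30.7% of all genes were called higher and 40.6% lower. Gfap was among those called higher. Its bounds were apart with age in KO (20.6 FPKM at P14 against 9.02 at P7) and overlapped in control (9.32 against 9.03 FPKM). Between the genotypes 2 of 6 measured genes were higher in KO P14 beyond counting error and 0 lower, Gfap at 20.6 against 9.32 FPKM (log2 difference 1.06) and Aldoc at 431 against 371 FPKM (0.22), and at P7 it was 0 of 7 in either direction. Over all genes tested, 7.45% were higher and 8.25% lower at P14, and 7.34% higher and 6.1% lower at P7. Limma's genotype term called 0 genes of the endothelial, pericyte, VEGF axis, Wnt, hypoxia and astrocyte lists.

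**Figure D4:**
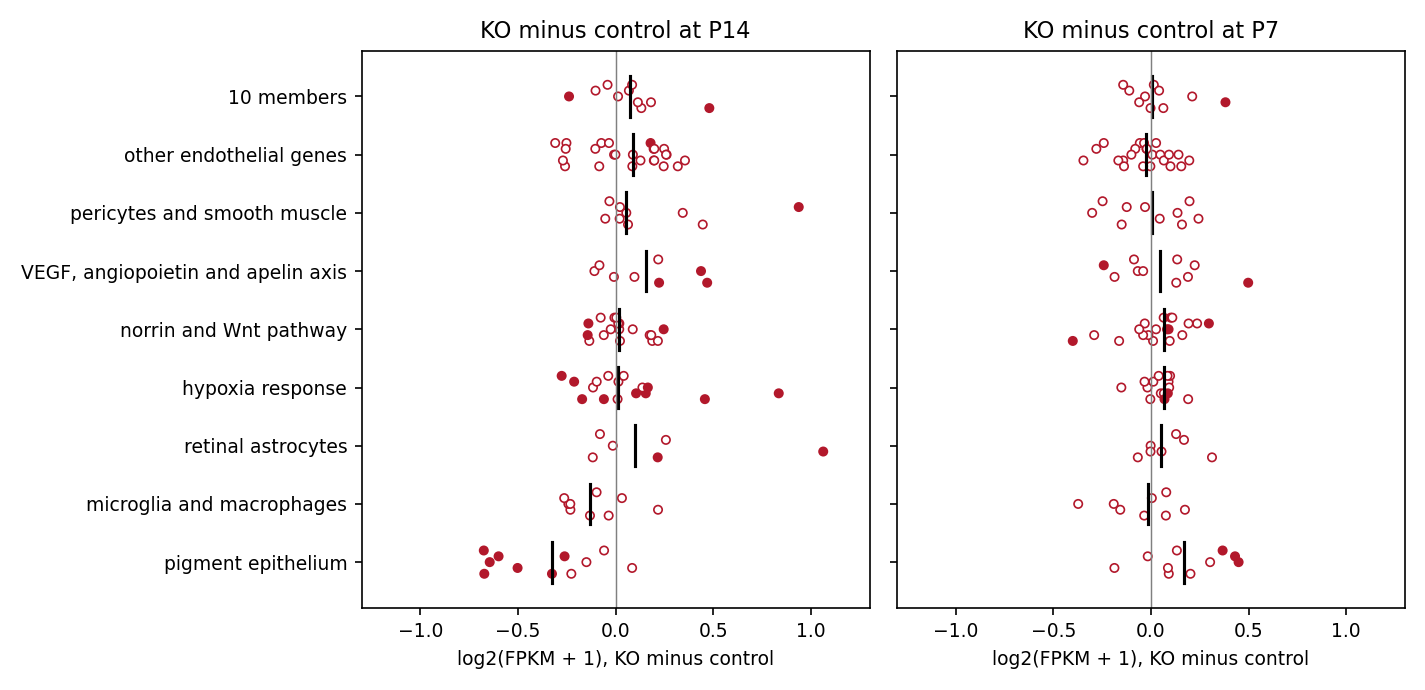
Difference of log2(FPKM + 1), KO minus control, at P14 (left) and P7 (right) for the 10 members and 8 gene lists (the erythroid and the lens, vitreous and ciliary matrix lists, which differ more, are not drawn); each point is a gene at a mean of 1 FPKM or more, filled where the bounds do not overlap, and vertical bars are list medians. Medians of the vascular and signalling lists run from -0.02 (other endothelial genes at P7) to 0.16 (VEGF, angiopoietin and apelin axis at P14). The pigment epithelium list lies at -0.33 at P14 and 0.17 at P7. The retina and sex-linked lists are not drawn either.

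The genes whose profile over the 4 libraries was closest to that of a member were of varied kinds, and the profile of 4 points does not pick out vessels. Among the closest to Ndp were AI462493, Uap1, Cisd3 and Slc24a2, with a root mean square difference of 0.02 in centred log2(FPKM + 1) for each, and 226 of 9180 genes compared were within 0.1. Closest to Vegfa were Hmg20b, Mavs, Mrpl42, Ccdc28b and Cep120 (0.01 to 0.02), with 689 genes within 0.1. Closest to the mean of the 6 endothelial genes Pecam1, Cdh5, Kdr, Flt1, Tek and Cldn5 were Gfer, Tgfbrap1, Sar1a, Sdhb and Rps4x (0.0052 to 0.01), with 1514 of 9181 genes within 0.1. The mean of these 6 genes on the log2 scale was 2.96 in KO P14 and 2.87 in control P14, against 3.19 in KO P7 and 3.14 in control P7, where their opposite age differences largely cancelled.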

How the data were processed

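Per the file headers, the deposited values are FPKM per gene, each with confidence limits and a quantification status. The submitters' processing notes name CASAVA 1.8.2, TopHat2 2.0.8b, Cufflinks 2.1.1 and the mm9 build; annotation, options and pooling are not stated there. Per the labels' protocols, cDNA was primed at random and 36-base single ends were read, with no step that marks strand named, so a gene and its antisense or overlapping partner share reads.

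From these files, symbols at several loci (251) were summed, 16 symbols with a failed value were left out where it would enter, and 740 symbols of small RNAs or loci under 300 bases were left out of all counts and fits. The files hold no counts. Of the fragment numbers implied by the bounds, 21.2% to 22.2% per library came within 0.1 of an integer, little above the share of evenly spread numbers. The implied fragment numbers are therefore approximate, and no count test was run. Genes tested in a comparison had 1 FPKM or more in either library. For the tests across genes, limma 3.58.1 (R 4.3.3) took log2(FPKM + 1) of genes reaching 1 FPKM in 2 or more libraries, an additive genotype and age model and a variance trend, and p-values were adjusted by Benjamini-Hochberg. The model leaves 1 residual degree of freedom, to which limma added 10.9 prior degrees of freedom, so the p-values lean on a spread shared between genes. A trial of the model on simulated data took its noise from the spread of this same fit. It therefore does not check the p-values against variation between mice. Starts in the files count from 0 and were given counted from 1. Python 3.11.15 with pandas 2.3.3 was used for the rest.

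The 10 members and the 12 other gene lists (other endothelial; pericyte and smooth muscle; VEGF, angiopoietin and apelin; norrin and Wnt; hypoxia; astrocyte; pigment epithelium; erythroid; lens, vitreous and ciliary matrix; microglia and macrophage; retina; sex-linked) were chosen with earlier results of these data known. List medians are over genes at a mean of 1 FPKM or more. Named list genes were up to 4 per list with bounds apart, at 1 FPKM or more and on 1 locus, ranked by size in each genotype comparison and in the control age comparison; others were named as list members of known role. Alternatives were a pseudocount of 0.1 FPKM, a TPM scale, centring on all genes, other floors, all genes kept and no variance trend. A few genes that these rules or lists include are not reported here.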

Additional observations from a re-analysis of the deposited data

How the results depend on the processing

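Of 112 alternative values of the members' limma terms, 109 kept their direction and side of the threshold. The exceptions were the age term of Tek on a TPM scale (0.33, adjusted p 0.0654), the age term of Fzd4 without a variance trend (0.25, adjusted p 0.0415), and the genotype term of Ndp on a TPM scale (-0.0209, adjusted p 0.971), which was near zero throughout. Of 120 alternative values of the members' log2 differences, 113 stayed within the width of the bounds and 0 of those beyond counting error turned. The median age difference of the 10 members in KO was 0.54 with a floor of 5 FPKM, which keeps fewer members, and 1 member was lower with age in control at that floor. Of 300 alternative list medians 69 moved by over 0.1; that of other endothelial genes turned to -0.25 between genotypes at P14 and to 0.06 with age in control with a floor of 5 FPKM, and that of the VEGF axis to 0.06 with age in KO with no floor. The counts of all genes moved more. With a pseudocount of 0.1 FPKM, 135 genes were 1.5-fold higher and 276 lower in KO at P14, and 106 and 197 at P7. On a TPM scale these were 111 and 354 at P14, and 124 and 259 at P7, and with a floor of 5 FPKM 36 and 57 at P14, and 17 and 39 at P7. Limma's genotype term called 31 genes lower and 0 higher, against 28 higher and 47 lower with a floor of 5 FPKM, 7 higher with all genes kept, 15 lower on a TPM scale, 17 lower without a variance trend and 0 lower with no floor. The cause of these shifts was not tested. No paired analysis was possible because each group is 1 library with no replicate number in the labels, and leaving out a library leaves the fit no residual degree of freedom. Depth limits the low genes most, as Ndp rests on about 96 implied fragments in control P7 and Tek on about 132 in KO P7.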

Other observations

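Genes of microglia and macrophages, cells that accompany growing retinal vessels, did not separate the genotypes. Beyond counting error, 0 of 9 measured genes were higher or lower in KO at P14 (median log2 difference -0.13) and 0 of 8 at P7 (-0.01). Of all genes tested, 15.7% were apart at P14 and 13.4% at P7. With age 2 of 10 fitted genes were called higher and 6 lower by limma (median -0.57), where 30.7% of all genes were called higher and 40.6% lower. The complement gene C1qa was at 6.89 FPKM in KO P14 and 7.45 FPKM in control P14, against 16.7 FPKM in KO P7 and 16.6 FPKM in control P7, and C1qb and C1qc were lower at P14 as well. Lyve1, known from lymphatic endothelium and from some macrophages, went the other way, at 8.15 FPKM in KO P14 and 9.98 FPKM in control P14, against 0.931 FPKM in KO P7 and 1.204 FPKM in control P7, while Mrc1, another macrophage gene, was at 0.07 FPKM in control P14 and lower in the other libraries.

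Esm1, a gene of endothelial tip cells, was below the floor of 1 FPKM in every library. It therefore entered only the values above that were given with no floor, and it was chosen after its values were seen. It was listed at 0.299 FPKM in KO P14 and 0.0539 FPKM in control P14, against 0.0655 FPKM in KO P7 and 0.00356 FPKM in control P7, and only in KO P14 did its bounds lie above those of the other libraries it was compared with.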
